A study of Rattus norvegicus with 6 samples.

Results

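Wnt ligands, their receptors, their secreted inhibitors and their feedback genes were followed in rat airway basal cells cultured in EpiX or in BEGM. The genes were chosen by symbol: every Wnt, Fzd, Sfrp1 to Sfrp5 and Dkk1 to Dkk4 gene, together with Lrp5, Lrp6, Wif1, Axin2, Lef1, Tcf7, Nkd1, Notum, Rnf43, Znrf3, Lgr4, Lgr5, Lgr6 and Sp5. Of the 51 RefSeq rat genes that match, 45 had a probe set named for them, out of 15037 genes measured in all. Wnt2, Wnt3a, Wif1, Lgr6, Tcf7 and Znrf3 had none and were not analysed here. Basal cells renew the lining of the airway. The donors were male WT Sprague Dawley rats, 12 weeks old, and cells came from scrapings of the trachea. Each of 3 lines was pooled from 3 rats and divided between the media at isolation. RNA was taken after 8 days in EpiX, an epithelial culture medium (3 arrays), or in BEGM, a bronchial epithelial growth medium (3 arrays). The labels give no composition for either medium, so every component that differs between them is part of the comparison.

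Wnt proteins are lipid-modified signals that bind Frizzled (Fzd) receptors. Together with the co-receptors Lrp5 and Lrp6 they stop the breakdown of beta-catenin, which then joins TCF and LEF factors on DNA and switches on target genes, several of which damp the signal in turn. Other Wnts act through Frizzled and Ror receptors without beta-catenin, on cell shape, movement and polarity. In the airway, Wnt signalling is known for its part in the renewal and differentiation of basal cells and in exchange with the mesenchyme beneath them.

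The signal of a gene is the authors' deposited value, taken as log2, for its brightest probe set, and differences are EpiX minus BEGM. A gene is said to have risen or fallen only at a Benjamini-Hochberg adjusted p under 0.05 over all 15037 genes by limma, a linear model that pools information on variance across genes. Levels are compared between arrays for a gene and not between genes, whose probes respond differently. The basal markers Krt14 and Tp63 were bright on every array, with Krt14 at 16.75 to 17.13 in EpiX and 16.38 to 16.85 in BEGM, and Tp63 at 14.62 to 14.80 in EpiX and 12.23 to 12.93 in BEGM. Of 10 basal markers 5 were called higher in EpiX (Tp63, Krt15, Bcam, Aqp3 and Dapl1). Pdpn was called lower (difference -2.96, adjusted p = 0.00195). Ngfr was low in both media, at 5.03 to 5.37 in EpiX and 4.69 to 4.875 in BEGM. BEGM array 1 was the BEGM array nearest to the EpiX mean for 46.3% of all genes and for 21 of the 45 Wnt pathway genes. Leaving it out raised the calls over all genes to 2089, against 869 with all arrays and 101 to 544 with any other single array left out.

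Cells in EpiX had lower levels of the receptor gene Fzd2 and of the ligand gene Wnt5b than cells in BEGM, and no Wnt pathway gene of the 45 passed the test in the other direction. Thus 2 of 45 fell (4.44%), against 3.15% of all genes, and 0 of 45 rose by limma, against 2.63% of all genes. In either direction 5.78% of all genes were called. At an unadjusted p under 0.05 there were 7 with a positive and 7 with a negative difference, and these 14 made up 31.1% of the 45, against 22.5% of all genes. The EpiX and BEGM values did not overlap for 7 genes that were higher in EpiX (15.6%, against 13.5% of all genes) and for 7 that were lower (15.6%, against 14.5%). In either direction 28.0% of all genes did not overlap. The median difference was 0.01 over the 45 genes and 0.0022 over all genes. Differences of 1 or more on the log2 scale, in either direction, were found for 9 of the 45 (20.0%), against 9.41% of all genes.

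**Figure D1:**
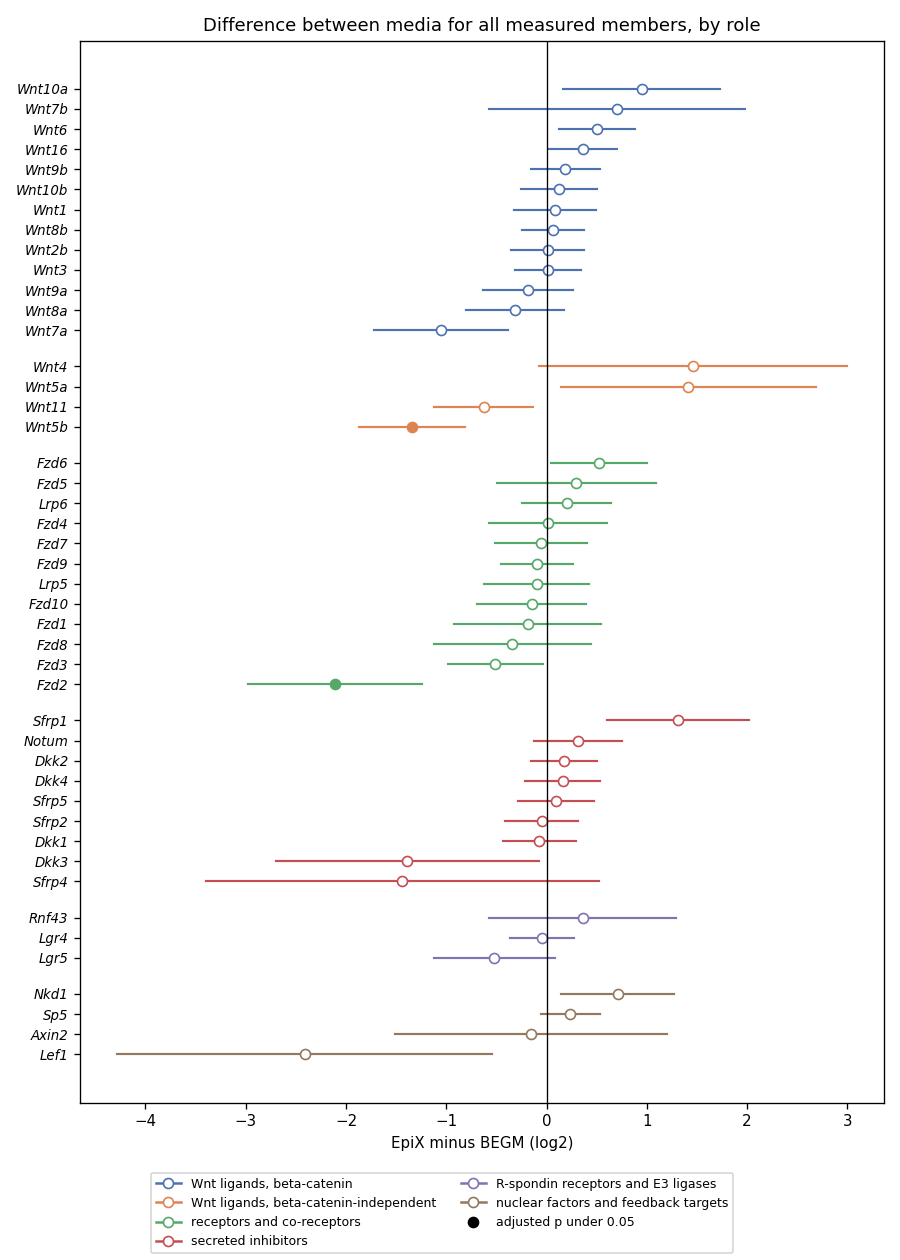
Difference EpiX minus BEGM (log2, horizontal axis) for the 45 measured Wnt pathway genes, grouped by role; points are the fitted differences, bars the 95% confidence intervals of the limma fit, and filled points the genes with an adjusted p under 0.05. Only Fzd2 (-2.11) and Wnt5b (-1.34) are filled, and open points lie on both sides of 0 in every role.

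Among the 17 measured Wnt ligands, 1 fell (5.88%, against 3.15% of all genes) and 16 did not pass. By limma 0 rose, though 4 had a positive difference at an unadjusted p under 0.05. The 3 largest differences were those of Wnt4, Wnt5a and Wnt5b, known mainly for signalling without beta-catenin, and these did not share a direction. Wnt5b was at 5.74, 5.90 and 5.93 on the EpiX arrays 1, 2 and 3, against 7.57, 7.26 and 6.76 on the BEGM arrays. All 3 EpiX arrays lay below all 3 BEGM arrays. Wnt5b fell by 1.34 ± 0.22 in EpiX (SE; n = 3 arrays in each medium; adjusted p = 0.0211), a 2.53-fold difference. The call was lost without EpiX array 1 (adjusted p = 0.0861), EpiX array 2 (0.1), EpiX array 3 (0.0604) or BEGM array 2 (0.0929). It was also lost without both arrays numbered 2 (0.354), a setting in which 0 of all genes were called by limma. The difference stayed between -1.60 and -1.10 whichever array or same-numbered pair of arrays was left out.

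Wnt5a, the close relative of Wnt5b and the ligand best known for Ror-dependent signalling, was at 8.26, 9.01 and 9.67 in EpiX and at 7.57, 6.59 and 8.53 in BEGM. BEGM array 3 lay within the EpiX range, and the difference of 1.42 ± 0.54 (SE) did not pass (adjusted p = 0.18). Wnt4, a ligand that can act with or without beta-catenin, was at 12.61, 12.45 and 11.87 in EpiX and at 12.44, 10.33 and 9.77 in BEGM. BEGM array 1 was as high as the EpiX arrays, whereas the other BEGM arrays were lower. The difference of 1.46 ± 0.65 (SE) had an adjusted p of 0.244, and without BEGM array 1 it was 2.26 (adjusted p = 0.0039). Without BEGM array 3 it was 0.92, and without any single array other than BEGM array 1 the adjusted p was 0.288 to 0.496. Wnt11, a ligand of cell movement, was low in both media at 4.29 to 4.40 in EpiX and 4.72 to 5.43 in BEGM, with no overlap (difference -0.62, adjusted p = 0.138).

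The 13 ligands known mainly for beta-catenin signalling held 0 calls by limma, with 3 positive and 1 negative difference at an unadjusted p under 0.05, and their median difference was 0.08. Wnt10a, an epithelial ligand, was at 9.10, 9.02 and 8.48 in EpiX and at 8.61, 7.41 and 7.75 in BEGM. BEGM array 1 lay within the EpiX range, and the difference was 0.95 ± 0.33 (SE; adjusted p = 0.152), or 1.29 without BEGM array 1 (adjusted p = 0.0158) and 0.69 to 1.14 without any other single array (adjusted p of 0.162 to 0.383). Wnt7b, a ligand made by lung epithelium, was at 10.07, 10.31 and 9.41 in EpiX and at 10.39, 9.11 and 8.18 in BEGM. Its highest value of all came from BEGM array 1, and its difference of 0.70 had a 95% confidence interval of -0.58 to 1.98 (adjusted p = 0.51).

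Wnt7a, the near relative of Wnt7b, was at 4.92, 4.79 and 4.61 in EpiX and at 5.65, 6.45 and 5.36 in BEGM. The groups did not overlap, and the difference of -1.05 ± 0.28 (SE) had an adjusted p of 0.0824. Wnt9a was at 5.0003 to 5.56 in EpiX and 5.34 to 5.61 in BEGM (difference -0.18, adjusted p = 0.63). Wnt6 was at 4.68 to 5.09 in EpiX and 4.39 to 4.49 in BEGM, and Wnt16 at 5.10 to 5.32 in EpiX and 4.71 to 4.96 in BEGM. Both were higher on every EpiX array and neither passed (adjusted p = 0.127 for Wnt6 and 0.198 for Wnt16). Of the 13, 7 had a mean signal under 4.50, the limit of the dimmest 25% of genes: Wnt1, Wnt2b, Wnt3, Wnt8a, Wnt8b, Wnt9b and Wnt10b. Without detection calls these cannot be called present or absent, and their differences ran from -0.32 to 0.19.

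**Figure D2:**
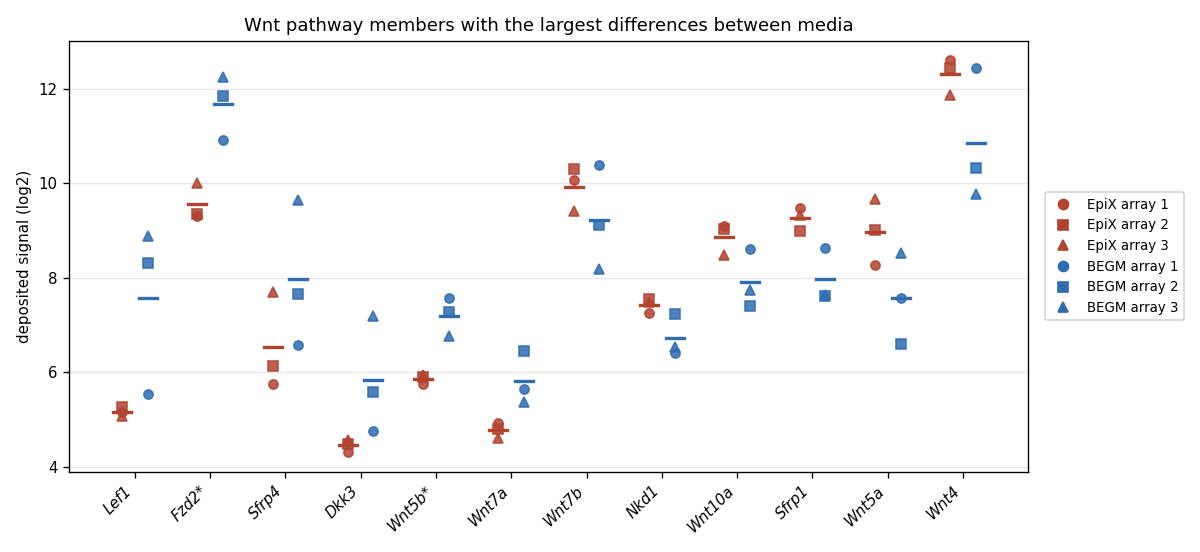
Deposited signal (log2, vertical axis) on each array for the 12 Wnt pathway genes with the largest differences, with EpiX arrays in red left of BEGM arrays in blue, symbols for the array number, short lines for the group means and an asterisk for an adjusted p under 0.05. The BEGM points are spread more widely than the EpiX points for all 12 genes, as for 61.8% of all genes measured. BEGM array 1 (blue circle) lies nearest to the EpiX mean for 8 of the 12. It does so for 13 of the 33 other Wnt pathway genes (39.4%) and for 46.3% of all genes.

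Of the 12 measured receptors and co-receptors, 1 fell (8.33%, against 3.15% of all genes) and 11 did not pass. By limma 0 rose, with 1 positive difference, that of Fzd6, at an unadjusted p under 0.05. Fzd2, a Frizzled receptor that takes part in Wnt5a signalling with Ror receptors, was at 9.31, 9.36 and 10.02 on the EpiX arrays, against 10.92, 11.84 and 12.26 on the BEGM arrays. The lowest BEGM array lay above the highest EpiX array. Fzd2 fell by 2.11 ± 0.37 (SE; adjusted p = 0.0237), a 4.32-fold difference with a 95% confidence interval of 2.37-fold to 7.87-fold. The call was lost without EpiX array 1 (adjusted p = 0.0956), EpiX array 2 (0.118) or BEGM array 2 (0.109), with differences between -2.49 and -1.82 whichever single array was left out. It was also lost without both arrays numbered 2 (adjusted p = 0.397, difference -1.93) or both numbered 3 (0.0554, difference -2.04).

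The other receptors showed smaller differences. Fzd6, a Frizzled known for planar polarity of epithelia, was at 11.84, 11.67 and 11.83 in EpiX and at 11.52, 11.39 and 10.85 in BEGM. It was higher on every EpiX array by a small margin (difference 0.52 ± 0.20, SE; adjusted p = 0.187). Fzd3, another polarity receptor, was at 5.44 to 6.02 in EpiX and 6.06 to 6.45 in BEGM, lower on every EpiX array (difference -0.51, adjusted p = 0.193). The co-receptors needed for beta-catenin signalling were near equal between the media. Lrp5 differed by -0.10 (95% confidence interval -0.62 to 0.43; 0.03 with each array centred on its median) and Lrp6 by 0.20 (-0.25 to 0.65). Fzd1, Fzd4, Fzd5, Fzd7, Fzd8, Fzd9 and Fzd10 overlapped between the media, with differences of -0.34 to 0.30. Fzd1 and Fzd8 were highest on BEGM array 3, Fzd1 at 9.24 (7.97 and 8.33 on BEGM arrays 1 and 2) and Fzd8 at 8.24 (6.96 and 7.08).

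Of the 9 measured secreted inhibitors 0 were called by limma, with 2 (Sfrp1 and Dkk3) at an unadjusted p under 0.05. Secreted Frizzled-related proteins (Sfrp) bind Wnts outside the cell, and Dickkopf proteins (Dkk) mostly act on Lrp5 and Lrp6. Sfrp1 was at 9.49, 8.999 and 9.33 in EpiX, against 8.63, 7.62 and 7.64 in BEGM. All EpiX arrays were above all BEGM arrays. The difference was 1.31 ± 0.30 (SE), a 2.48-fold higher level in EpiX, with an adjusted p of 0.0543. That value lay close to the threshold. The adjusted p was 0.0232 with the sample number as a replicate block, 0.0338 as a random block and 0.0219 with array weights. It was 0.045 after median centring of the arrays, 0.0479 without the dimmest 25% of genes and 0.0495 with trended robust variance. After quantile normalization it was 0.0544, with probe set means 0.0543, and without BEGM array 1 it was 0.00324. It was 0.129 to 0.179 without any other single array and 0.418 without both arrays numbered 2, with differences of 1.14 to 1.45 in these settings.

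Sfrp4 was at 5.74, 6.13 and 7.71 in EpiX, against 6.58, 7.66 and 9.65 in BEGM. The groups overlapped, with array 3 the highest in each medium (difference -1.44 ± 0.83, SE; adjusted p = 0.37). EpiX was lower than BEGM for each of the 3 array numbers, and without BEGM array 3 the difference was -0.59. With the sample number as a replicate block the adjusted p by limma was 0.0272, and as a random block it was 0.279. The labels do not tie these numbers to the lines. Dkk3, the family member least tied to Wnt inhibition, was at 4.31, 4.48 and 4.57 in EpiX, against 4.76, 5.58 and 7.18 in BEGM. All EpiX values were lower, BEGM array 3 was the highest, and the difference was -1.39 ± 0.55 (SE; adjusted p = 0.2). Without BEGM array 1 the difference was -1.93 (adjusted p = 0.0296), and without BEGM array 3 it was -0.72 (adjusted p = 0.225). No other single array left out gave a call (adjusted p of 0.297 to 0.407). Sfrp2, Sfrp5, Dkk1, Dkk2 and Notum had mean signals under the dim limit. Their differences were -0.07 for Dkk1, -0.05 for Sfrp2, 0.09 for Sfrp5, 0.17 for Dkk2 and 0.31 for Notum, and that of Dkk4 was 0.16.

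Lgr receptors bind R-spondins, which strengthen Wnt signalling by blocking the E3 ligases Rnf43 and Znrf3 that remove Frizzled receptors from the cell surface. Of the 3 measured, 0 were called by limma, and 0 had an unadjusted p under 0.05. Lgr4 was at 9.57, 9.73 and 9.67 in EpiX and at 9.65, 9.64 and 9.83 in BEGM. These values were closely matched, with a difference of -0.05 (0.08 with each array centred on its median) and a 95% confidence interval of -0.37 to 0.27. Rnf43, itself a Wnt target, was at 9.12, 9.33 and 9.43 in EpiX and at 9.53, 9.29 and 7.97 in BEGM. Apart from the low BEGM array 3 the media overlapped (difference 0.36, adjusted p = 0.659, or -0.12 without BEGM array 3). Lgr5, a stem cell marker of other epithelia, was at 4.07 to 4.73 in EpiX and 4.56 to 5.27 in BEGM, near the dim limit (difference -0.52, adjusted p = 0.287).

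Axin2, Nkd1 and Sp5 are feedback genes of beta-catenin signalling: Axin2 is a scaffold of the complex that destroys beta-catenin, Nkd1 binds Dishevelled, and Sp5 is a transcription factor. Their upstream sequences are shown because TCF and LEF factors bind letters of the kind searched here. The letters searched were CTTTG followed by AA, AT, TA or TT, on both strands, and they are in capitals in the 250 bases before each gene's start, from RefSeq on GRCr8 (chr10:94398535-94398784, plus strand, for Axin2; chr19:34722847-34723096, minus strand, for Nkd1; chr3:75682427-75682676, plus strand, for Sp5).
Axin2: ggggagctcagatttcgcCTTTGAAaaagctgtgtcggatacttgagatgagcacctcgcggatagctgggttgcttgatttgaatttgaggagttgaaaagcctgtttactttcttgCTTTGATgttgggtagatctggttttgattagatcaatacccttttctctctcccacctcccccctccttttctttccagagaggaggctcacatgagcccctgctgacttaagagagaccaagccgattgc
Nkd1: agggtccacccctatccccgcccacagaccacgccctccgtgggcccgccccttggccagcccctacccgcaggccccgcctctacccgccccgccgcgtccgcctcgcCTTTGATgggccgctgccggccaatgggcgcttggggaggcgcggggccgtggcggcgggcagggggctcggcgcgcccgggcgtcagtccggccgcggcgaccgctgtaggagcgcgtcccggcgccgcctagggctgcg
Sp5: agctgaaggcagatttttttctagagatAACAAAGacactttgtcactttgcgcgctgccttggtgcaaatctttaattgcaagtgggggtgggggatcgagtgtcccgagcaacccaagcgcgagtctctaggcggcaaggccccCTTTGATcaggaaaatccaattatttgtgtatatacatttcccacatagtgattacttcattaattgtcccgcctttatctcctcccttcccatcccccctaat

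Axin2 and Sp5 each held 2 matches and Nkd1 held 1, and no match overlaps another. The Axin2 matches begin 232 and 132 bases before the start, the Nkd1 match 141, and the Sp5 matches 222 and 104, of which the first (AACAAAG) is on the opposite strand. Windows of 300 bases, reaching 50 bases past the start, were found for 30 of the 45 genes, and 8 of these (26.7%) held a match, against 17.1% of 33469 rat promoters. The other 5 were those of Dkk1, Fzd7, Sfrp5, Wnt3 and Wnt8a. The windows of Lef1, Rnf43, Wnt4, Wnt5a, Wnt7a and Wnt10a were among those that held none. No window was found for Fzd2 or Wnt5b, the genes that fell. A match describes letters and not binding.

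Among the 4 measured nuclear factors and feedback genes 0 were called by limma, with 2 (Lef1 and Nkd1) at an unadjusted p under 0.05. Axin2 was at 4.65, 4.84 and 5.58 in EpiX and at 4.37, 4.62 and 6.53 in BEGM. The media overlapped, and array 3 was the highest in each. The difference of -0.15 had a wide 95% confidence interval of -1.51 to 1.21 (adjusted p = 0.916), and its sign turned to 0.53 without BEGM array 3. Sp5 was at 5.15, 5.17 and 5.07 in EpiX and at 4.89, 4.86 and 4.93 in BEGM, higher on every EpiX array by a small margin (difference 0.24, adjusted p = 0.323). Nkd1 was at 7.26, 7.55 and 7.49 in EpiX, against 6.42, 7.23 and 6.53 in BEGM. It was also higher on every EpiX array, with a difference of 0.71 ± 0.24 (SE; adjusted p = 0.141).

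Lef1, a TCF-family factor that partners beta-catenin and is also a Wnt target, had the largest difference of the 45 genes and did not pass. It was at 5.17, 5.26 and 5.07 in EpiX, against 5.54, 8.31 and 8.89 in BEGM. The EpiX arrays were tightly grouped, BEGM array 1 lay just above them, and the other BEGM arrays were far higher. The difference of -2.41 ± 0.79 (SE) had an adjusted p of 0.134, and without BEGM array 1 it was -3.43 (adjusted p = 0.000397). Without BEGM array 3 it was -1.76 (adjusted p = 0.27), and without any of the other arrays it was -2.46 to -2.05 (adjusted p of 0.243 to 0.342).

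**Figure D3:**
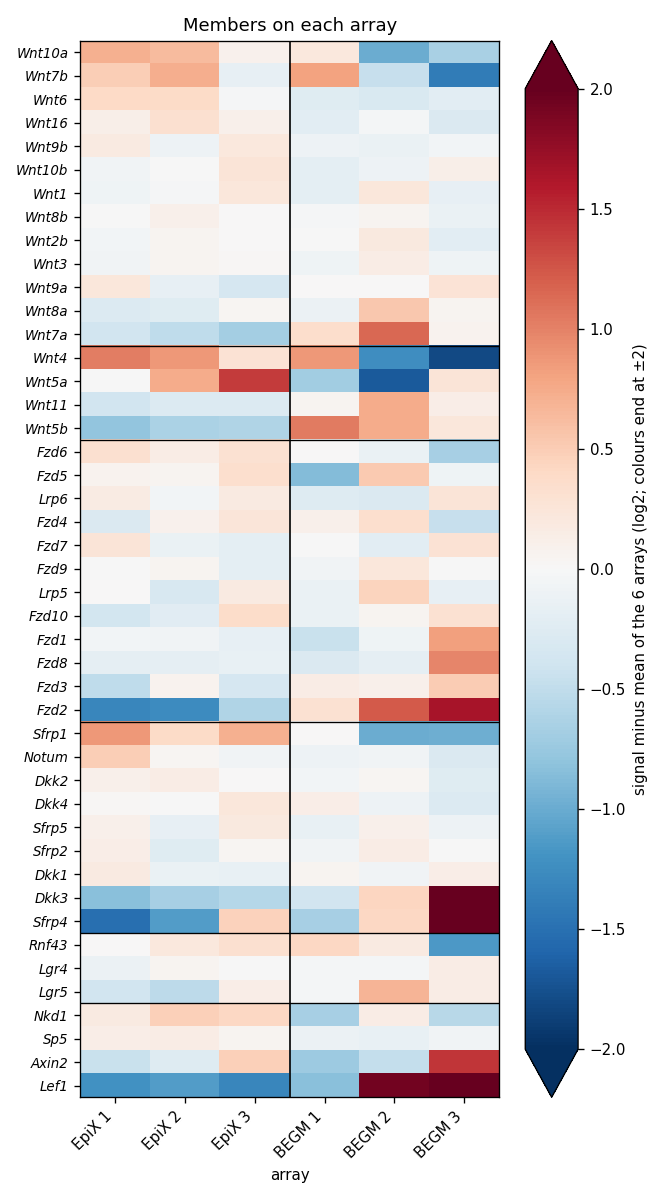
Signal of each of the 45 Wnt pathway genes on each array after subtraction of the gene's mean over the 6 arrays (log2, colour; the scale ends at ±2), with EpiX arrays left of BEGM arrays and horizontal lines between roles in the order of the plot of differences. Lef1 on BEGM array 1 (5.54) resembles the EpiX arrays, Wnt4 on BEGM array 1 (12.44) likewise, and Dkk3 and Sfrp4 are highest on BEGM array 3 (7.18 and 9.65).

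The values on the BEGM arrays were spread more widely than those on the EpiX arrays for 34 of the 45 genes (75.6%), against 61.8% of all genes. Markers of mesenchymal cells were compared on the same arrays. Over the 9 measured of 10 fibroblast markers, the summed log2 signal was 57.5, 58.9 and 63.3 on the EpiX arrays 1, 2 and 3, against 69.5, 75.2 and 97.2 on the BEGM arrays. Of these 9 markers 1 fell (Fn1) and 0 rose by limma, with 5 negative and 0 positive differences at an unadjusted p under 0.05. The summed signal was highest on BEGM array 3 and, within BEGM, lowest on array 1. Of the 6 genes with negative differences among the 12 largest, Fzd2, Lef1, Sfrp4 and Dkk3 had this order within BEGM. Wnt5b and Wnt7a were instead lowest on BEGM array 3 within that medium. Fzd1, Fzd8, Fzd10, Axin2, Wnt9a and Wnt10b, which differed little between the media, also had the order, and Wnt10b was under the dim limit on every array. The share of all genes with this order was not computed, so the genes named here cannot be set against it. BEGM array 1 lay between the EpiX arrays and the other BEGM arrays for 6 of the 45 genes, against 2332 of all 15037. Col1a1 was at 5.82, 5.14 and 5.56 in EpiX, against 7.44, 8.32 and 12.34 in BEGM, and Postn lay under the dim limit on all EpiX arrays at 3.78 to 3.88. Over 9 smooth muscle and cartilage markers the sum was 49.3 to 50.2 in EpiX, against 58.4 to 62.7 in BEGM. Most of this gap came from Cnn1 (-7.00) and Acta2 (-2.91), which were lower by limma. The other 7 were not called, with differences of -0.58 (Actg2) to 0.08 (Acan).

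The leukocyte markers (6 of 7 measured) summed to 31.4 to 32.3 in EpiX and 31.4 to 32.8 in BEGM, with 1 lower (Cd74), and Ptprc was under the dim limit on every array. The 6 endothelial markers summed to 26.6 to 27.5 in EpiX and 29.7 to 31.1 in BEGM, with 0 called by limma and 2 at an unadjusted p under 0.05. The 4 measured of 6 ciliated markers summed to 17.8 to 19.3 in EpiX and 17.5 to 18.8 in BEGM, with 0 called by limma and 2 at an unadjusted p under 0.05. The 6 measured of 7 secretory markers summed to 49.4 to 61.1 in EpiX and 37.4 to 49.6 in BEGM, with 2 higher (Cyp2f4 and Pigr). The largest difference, that of Scgb3a1 (5.72), was not called by limma (adjusted p = 0.0675). Scgb1a1 (-0.85) and Scgb3a2 (-0.38) had negative differences and were not called. The 10 basal markers summed to 128.4 to 130.9 in EpiX and 113.2 to 118.3 in BEGM, with 5 higher and 1 lower. Over all genes 2.63% were higher and 3.15% lower by limma. Which cells gave these marker signals was not tested, nor was their part in the Wnt pathway values. In bulk RNA fewer cells of a type, less RNA per cell and a change in other cells cannot be told apart.

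Of 100 other genes of the pathway 81 were measured, and 2 rose (Fgf9 and Ankrd6), 5 fell (Pygo1, Ephb2, Tcf7l1, Cby1 and Btrc) and 74 did not pass. The 2 that rose were 2.47% of the 81, against 2.63% of all genes, and the 5 that fell were 6.17%, against 3.15% of all genes. Their median difference was -0.12, against 0.0022 over all genes. Fgf9, a growth factor known as a Wnt target, was at 7.06, 7.68 and 6.79 in EpiX, against 4.81, 5.28 and 4.92 in BEGM. Every EpiX array lay well above every BEGM array, and Fgf9 rose by 2.18 ± 0.26 (SE; adjusted p = 0.00834). This call held whichever single array was left out (adjusted p of 0.00564 to 0.0453), but not without both arrays numbered 2 (0.17). Ephb2, a receptor kinase known as a Wnt target in the gut, was at 7.66, 7.96 and 8.28 in EpiX, against 9.08, 10.23 and 9.21 in BEGM. It fell by 1.54 ± 0.33 (SE; adjusted p = 0.0456; 0.0544 after quantile normalization and 0.0551 after median centring). Fgf9 and Ephb2 were the only 2 calls among 18 measured target genes. That is 5.56% in each direction, against 2.63% of all genes higher and 3.15% lower.

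Among 14 measured beta-catenin partners 3 fell (21.4%, against 3.15% of all genes), 0 rose by limma (1 positive difference at an unadjusted p under 0.05) and 11 did not pass. Pygo1, a co-activator of beta-catenin, was at 3.79, 4.79 and 4.37 in EpiX, against 5.72, 6.45 and 7.58 in BEGM. It was lower on every EpiX array and fell by 2.26 ± 0.48 (SE; adjusted p = 0.0441). Tcf7l1, a TCF that mostly represses, was at 6.50, 5.88 and 6.44 in EpiX, against 7.08, 7.77 and 7.55 in BEGM (difference -1.19, adjusted p = 0.0414; 0.0501 after quantile normalization). Cby1, a beta-catenin antagonist that also serves the base of cilia, was at 9.35, 9.46 and 8.96 in EpiX, against 9.94, 10.80 and 10.43 in BEGM (difference -1.13, adjusted p = 0.0495; 0.0506 after quantile normalization and 0.0567 after median centring). Of these 3 calls, only that of Pygo1 held under both normalizations. All 3 were lost when any single array other than BEGM array 1 was left out. Ctnnb1, the beta-catenin gene itself, named after its values were seen, was at 15.51, 15.38 and 15.32 in EpiX and at 15.64, 15.46 and 15.27 in BEGM. The difference of -0.05 (0.08 with each array centred on its median) had a 95% confidence interval of -0.41 to 0.31.

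Of 19 measured Dishevelled and destruction complex genes 1 fell (5.26%, against 3.15% of all genes) and 18 did not pass. By limma 0 rose, with 2 positive differences at an unadjusted p under 0.05. Btrc, the ligase subunit that marks phosphorylated beta-catenin for breakdown, was at 8.22, 8.73 and 8.39 in EpiX, against 9.16, 9.62 and 9.85 in BEGM. It fell by 1.10 ± 0.23 (SE; adjusted p = 0.041). Among 15 genes of beta-catenin-independent receptors and planar polarity 1 rose (6.67%, against 2.63% of all genes) and 14 did not pass. By limma 0 fell, with 2 negative differences at an unadjusted p under 0.05. Ankrd6, a polarity protein that also binds the destruction complex, was at 7.32, 7.16 and 6.87 in EpiX, against 6.38, 6.09 and 6.15 in BEGM. It rose by 0.91 ± 0.17 (SE; adjusted p = 0.0314). Ror2, the Wnt5a receptor, named after its values were seen, was at 4.13, 3.98 and 4.46 in EpiX, against 5.07, 7.39 and 8.50 in BEGM. As for Lef1, BEGM array 1 lay closest to EpiX (difference -2.80 ± 0.78, SE; adjusted p = 0.0902, or 0.00121 without BEGM array 1). Without BEGM array 3 the difference was -2.04, and without any single array other than BEGM array 1 the adjusted p was 0.156 to 0.268.

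The 13 measured R-spondins and other extracellular modulators held 0 calls by limma, with 3 at an unadjusted p under 0.05. Rspo1, a Wnt-enhancing ligand of the Lgr receptors, was at 5.20, 5.43 and 5.38 in EpiX, against 6.58, 8.88 and 9.999 in BEGM. The 3 EpiX arrays were alike and the BEGM arrays spanned over 3 log2 units, so the difference of -3.15 ± 0.77 (SE) had an adjusted p of 0.0646, or 0.000788 without BEGM array 1. Without BEGM array 3 it was -2.40 (adjusted p = 0.104), and without any of the other arrays the adjusted p was 0.142 to 0.212. Gpc4, a surface proteoglycan that binds Wnts, was at 7.37 to 7.67 in EpiX and 8.05 to 9.29 in BEGM (difference -1.21, adjusted p = 0.0754, or 0.00356 without BEGM array 1 and 0.143 to 0.228 without any other single array). Both genes of ligand secretion overlapped between the media. Wls, which carries Wnts to the cell surface, was at 12.91 to 13.43 in EpiX and 12.44 to 13.04 in BEGM (difference 0.49, adjusted p = 0.258). Porcn, which attaches their lipid, was at 12.71 to 13.02 in EpiX and 12.65 to 13.52 in BEGM (difference -0.21, adjusted p = 0.672).

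**Figure D4:**
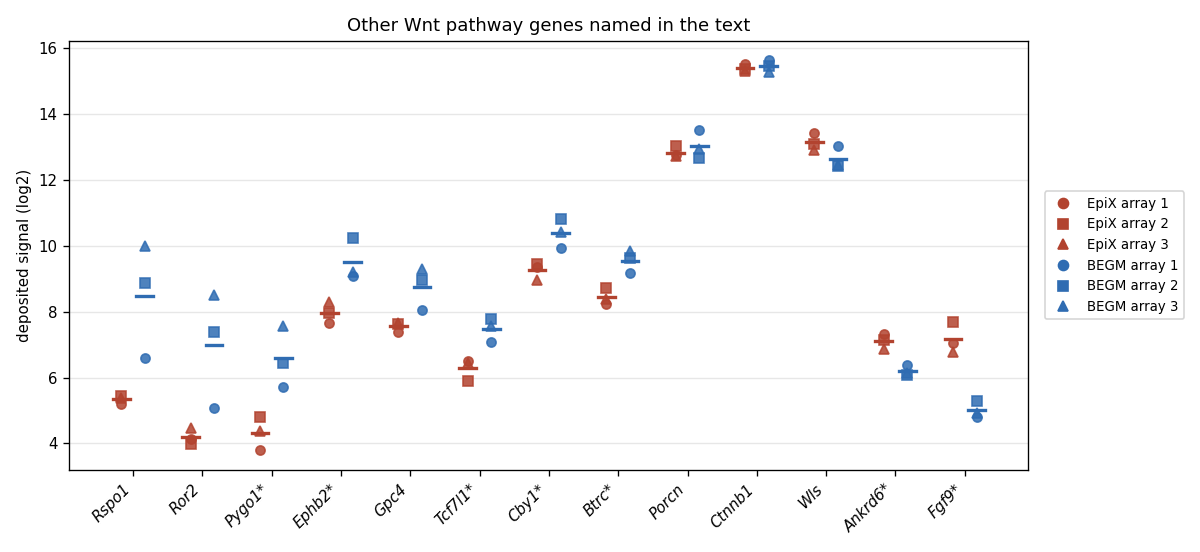
Deposited signal (log2, vertical axis) on each array for 13 other Wnt pathway genes, with EpiX arrays in red left of BEGM arrays in blue, symbols for the array number, short lines for group means and an asterisk for an adjusted p under 0.05. Fgf9 and Ankrd6 are higher on every EpiX array, and for Rspo1 and Ror2 BEGM array 1 (6.58 and 5.07) lies between the EpiX arrays and the other BEGM arrays.

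Apart from that of Fgf9, the calls among the other pathway genes depended on single arrays. All 5 falls were lost without EpiX array 1, 2 or 3, BEGM array 2 or BEGM array 3, each left out in turn (12 to 16 of the 81 then had a negative difference at an unadjusted p under 0.05), while 10 genes fell without BEGM array 1. With any of those 5 arrays left out the differences ran from -2.50 to -1.77 for Pygo1, -1.70 to -1.18 for Ephb2, -1.31 to -0.997 for Tcf7l1, -1.24 to -0.927 for Cby1 and -1.24 to -0.94 for Btrc. Calls over all genes were also fewer in these settings (101 to 544, against 869 with all arrays). Without BEGM array 1 they were more, with 1101 of all 15037 genes lower in EpiX by limma, against 474 with all arrays. Ankrd6 was not called without EpiX array 1 (adjusted p = 0.11), EpiX array 2 (0.141), BEGM array 2 (0.119) or BEGM array 3 (0.0804).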

How the data were processed

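RNA was labelled with biotin for Affymetrix arrays, per the labels' protocols. Per the submitters' processing notes, the Transcriptome Analysis Console was used, with no stated role. The deposited table gives values, taken here as log2, for 24834 probe sets on each array. How the authors normalized them is not given in the sources used here. Their unit was taken from the values (2.62 to 18.66), so scale, centring and the base of the logarithm stay unknown, and folds assume base 2. The platform annotation gave 1 gene symbol to 15049 probe sets. The brightest was kept for 10 genes with several, leaving 15037 genes. No Wnt pathway gene had several.

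Medium was the only term of a limma 3.58.1 fit (R 4.3.3; lmFit, eBayes) on 6 arrays, with 2-sided p-values and Benjamini-Hochberg adjustment over all genes. The number of arrays limits precision. The code was tested on simulated data. Figures were drawn with matplotlib 3.10.9. Alternatives were a fixed or random block for the sample number (statmod 1.5.0), quantile normalization, median centring, leaving out the dimmest 25% of genes, trended robust variance, array weights, probe set means, and leaving out arrays. The link between sample numbers and lines is not in the labels. The titles of both arrays numbered 2 here carry the number 3. Those of both arrays numbered 3 are written in another format, without a sample number. P-values measure the spread between these cultures.

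The genes and lists were chosen with earlier results of these data known. Array values are given for called genes and for the 12 largest differences. Up to 3 of the brightest genes per role are named too. Of the other pathway genes, up to 4 called per role are named, or the 2 largest differences where none was called. Further genes named (Wnt6, Wnt11, Wnt16, Fzd1, Fzd3, Fzd8, Lrp6, Sp5, Ror2 and Ctnnb1 among them) were chosen after their values were seen.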

Additional observations from a re-analysis of the deposited data

How the results depend on the processing

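Of the 45 Wnt pathway genes, 0 rose and 2 fell by limma, and of the 81 others 2 rose and 5 fell. Among the 45, 1 rose (Sfrp1) with the number as a replicate block or a random block, with median centring, without the dimmest 25% and with trended variance. With array weights 3 rose and 4 fell among the 45, and 5 rose and 10 fell among the others. With the replicate block 3 fell among the 45 (Sfrp4 added, -1.44 ± 0.24, SE; adjusted p = 0.0272), and 8 fell among the others. Other risen genes numbered 4 with the random block. Other fallen genes numbered 2 after quantile normalization and 3 after median centring, which moves the median of all differences to 0.13 and turned the signs of 6 of the 45, Lgr4 (0.0791) and Lrp5 (0.0279) among them, and of Ctnnb1 (0.0755). Quantile normalization turned 1 of the 45 and array weights 3. Leaving out arrays or same-numbered pairs gave 0 to 3 rises and 0 to 4 falls among the 45, and 0 to 5 rises and 0 to 10 falls among the others. Without the arrays numbered 2 all 4 counts were 0 by limma, with 2, 4, 6 and 6 genes at an unadjusted p under 0.05. Signs turned for 1 to 9 of the 45 without a single array (9 without BEGM array 3) and for 1 to 14 without a pair (14 without the arrays numbered 3). In these settings the difference ran from -0.56 to 0.53 for Axin2, -0.15 to 0.0393 for Ctnnb1, -0.0036 to 0.29 for Dkk4, -0.12 to 0.0154 for Lgr4, -0.32 to 0.23 for Lrp5, -0.50 to 0.0707 for Porcn, -0.19 to 0.75 for Rnf43 and -0.39 to 0.0291 for Wnt9a. The cause of these changes was not tested, beyond the smaller number of arrays. Over all genes, deviations of same-numbered arrays correlated at 0.32, -0.01 and 0.32 for the numbers 1, 2 and 3, so the pairing rests on a shared number. Not every array correlated best with its own number. Over all genes 869 were called, 1252 with the block, 1987 with array weights and 0 to 2089 with arrays left out.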
